A study of Mus musculus with 12 samples.

Results

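The matrix proteoglycan genes described here are 7 small leucine-rich proteoglycan genes, Dcn (decorin), Bgn (biglycan), Aspn (asporin), Lum (lumican), Fmod (fibromodulin), Prelp and Ogn (osteoglycin), with the large proteoglycan gene Vcan (versican). They were chosen by name and measured on the transcript cluster, the array's gene-level probe set, that carried exactly 1 gene symbol. Each of the 8 members had 1 such cluster, out of 19938 genes measured in the same way.

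The cells were C2i-Myog, stably derived from C2C12 mouse myoblasts, in which doxycycline turns on a Flag-tagged Myog transgene, coding for myogenin, a muscle transcription factor. SB+Dox cells received SB203580, an inhibitor of p38α and p38β MAP kinase, at 10 µM and doxycycline at 0.2 µg/mL. SB cells received the inhibitor alone, Dox cells doxycycline alone, and control cells neither. The 4 groups, with 3 arrays each, shared the transgene, growth with 10% serum, and a treatment of 48 h in differentiation medium (1% horse serum, and 10 µg/mL of both insulin and transferrin), although the labels of the control arrays name no differentiation. No group received doxycycline without the transgene, and the labels do not say whether the line is a single clone or whether replicates were separate cultures, so p-values measure the spread between these arrays, which may be technical. The comparisons ask what p38 inhibition and Myog induction each did to the proteoglycan genes and whether the doxycycline change differed with the inhibitor present.

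Small leucine-rich proteoglycans are secreted proteins that bind collagen and, in several cases, growth factors of the TGF-β family, and many carry chondroitin, dermatan or keratan sulphate chains. Decorin is a regulator of collagen fibril assembly and of TGF-β activity in muscle. Versican is a chondroitin sulphate proteoglycan that binds hyaluronan and forms the loose matrix around migrating and proliferating cells, and in mouse muscle its removal by ADAMTS proteases accompanies myoblast fusion.

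Values are log2 expression values on which 1 unit is a doubling. Array medians lay between 4.86 and 5.06. The 9 muscle markers were Myod1, Myog, Myf5, Des, Ckm, Acta1, Myh3, Tnnt3 and Mymk. All exceeded the 95th percentile of 1035 olfactory receptor clusters, 4.67, on each of the 12 arrays. That percentile served as a guide to the level of genes muscle cells do not use. The array medians lay above it as well, so exceeding it is no check of muscle identity. Myog itself read 8.10, 8.23 and 8.68 in SB+Dox, 6.93, 7.96 and 8.21 in SB, 10.39, 10.30 and 10.40 in Dox, and 9.66, 10.18 and 9.89 in control. Its doxycycline changes did not pass the test (0.64, adjusted p = 0.157 with the inhibitor, and 0.46, adjusted p = 0.467 without it), and whether the probes read the transgene is not known, so the array gives no separate check of induction. A gene was called at an adjusted p (limma, Benjamini-Hochberg over 21789 clusters) under 0.05. In bulk RNA, fewer cells of a type and less RNA per cell cannot be told apart.

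Decorin and versican differed in the inhibitor's direction. Dcn was higher with SB203580, 2.95-fold without doxycycline and 8.91-fold with it, while Vcan was lower, 3.29-fold and 2.37-fold. With doxycycline alone both were lower, Dcn by 6.26-fold, to a level near that of unused genes, and Vcan by 2.86-fold. Biglycan followed versican in falling with the inhibitor, asporin fell in every treated group to a level near that of unused genes, and osteoglycin was lower with doxycycline alone and not in SB+Dox.

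Dcn read 7.81, 7.65 and 8.55 in SB+Dox, 8.69, 8.89 and 9.59 in SB, 4.63, 4.93 and 4.97 in Dox, and 7.23, 6.80 and 8.44 in control. The Dox arrays were far below every other array, the SB arrays were above every other array, and SB+Dox and control overlapped. One Dox array lay below the olfactory 95th percentile of 4.67 and the others not far above it. The sizes of Dcn differences from Dox may therefore be understated. Dcn averaged 9.05 ± 0.47 in SB and 7.49 ± 0.85 in control (SD, n = 3), a log2 change of 1.56 (SE 0.34, adjusted p = 0.0118). Leaving out single control arrays gave 1.43 without replicate 1 (adjusted p = 0.0546), 1.22 without replicate 2 (adjusted p = 0.0594) and 2.04 without replicate 3, so the first 2 omissions ended the call. Dcn averaged 8.0 ± 0.48 in SB+Dox and 4.85 ± 0.19 in Dox, a change of 3.15 (SE 0.34, adjusted p = 2.79e-05). Doxycycline alone lowered it, a log2 change of -2.65 (SE 0.34, adjusted p = 0.0003). With doxycycline added to the inhibitor Dcn changed by -1.05 (SE 0.34, 95% interval -1.78 to -0.32, adjusted p = 0.0826), and did not pass, although the arrays did not overlap. Arrays of SB+Dox and SB with the same replicate number deviated together, and with that number as a block the same change passed (SE 0.20, adjusted p = 0.00509). Replicate 3 gave the highest Dcn value within each of the 4 groups. SB+Dox against control gave 0.51 (adjusted p = 0.548). The descending order was therefore SB, SB+Dox, control and Dox, in which SB+Dox and control did not differ beyond their spread.

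Vcan read 4.91, 5.37 and 5.32 in SB+Dox, 6.06, 5.91 and 6.76 in SB, 6.47, 6.52 and 6.34 in Dox, and 7.91, 8.10 and 7.87 in control. The control arrays were above all treated arrays, the SB+Dox arrays were below all others, and SB and Dox overlapped. Vcan averaged 6.24 ± 0.45 in SB and 7.96 ± 0.12 in control, a change of -1.72 (SE 0.18, adjusted p = 5.16e-05). Doxycycline alone gave 6.44 ± 0.09 against the same control mean (log2 change -1.52, SE 0.18, adjusted p = 0.00017). In SB+Dox Vcan averaged 5.20 ± 0.26, which was below SB by 1.04 (SE 0.18, adjusted p = 0.00267), and the change was -1.25 in SB+Dox against Dox (adjusted p = 0.000321) and -2.76, or 6.78-fold lower, in SB+Dox against control (adjusted p = 1.17e-06). Each of these 5 calls for Vcan held under every alternative run, including each left-out array. The SB+Dox arrays lay not far above the olfactory percentile of 4.67, so the sizes of Vcan differences from SB+Dox may be understated.

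**Figure D1:**
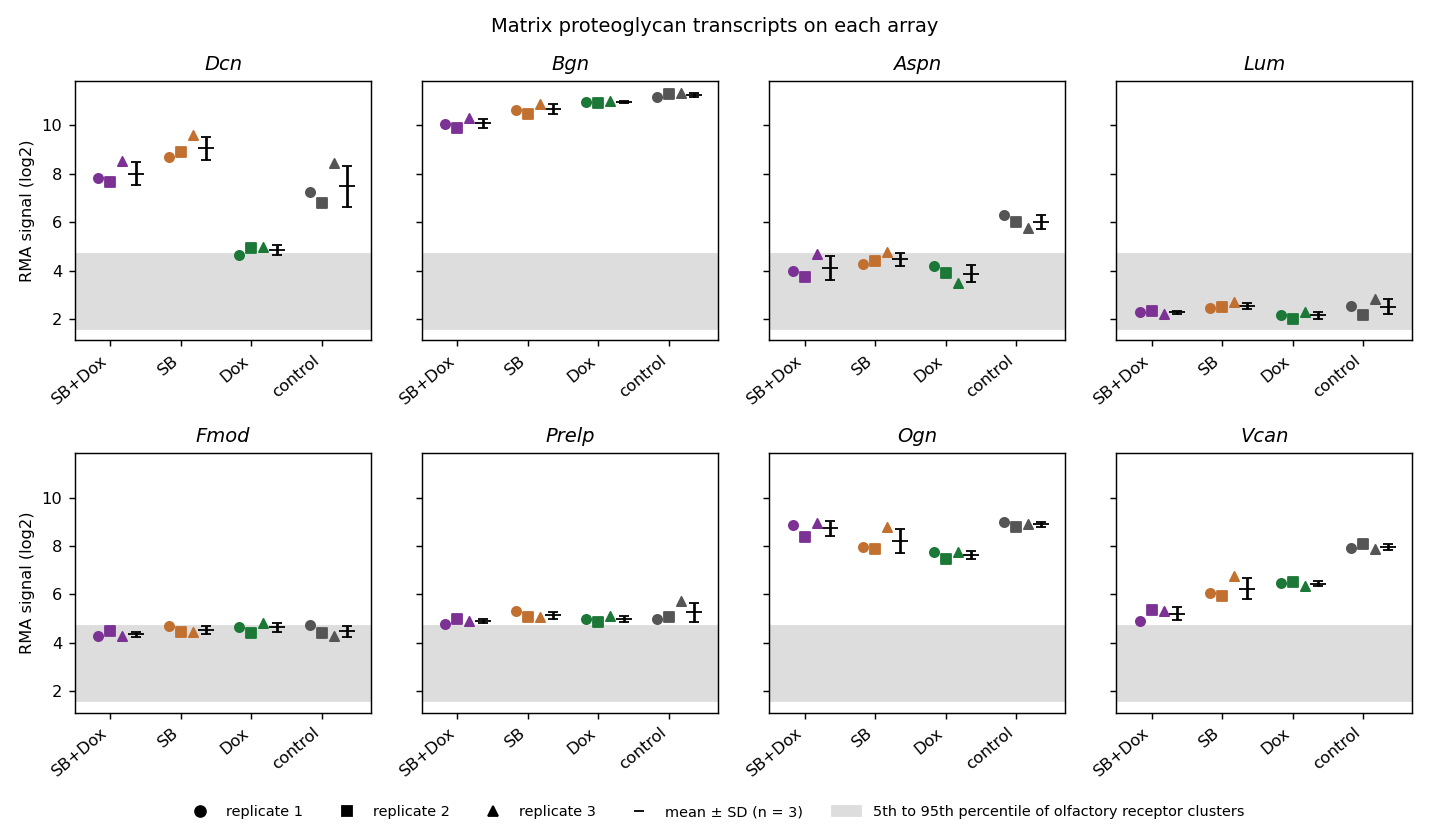
Log2 expression of each of the 8 genes on every array, with SB+Dox, SB, Dox and control from left to right (each symbol is an array, the black bar is the mean ± SD, n = 3). The grey band spans the 5th to the 95th percentile of olfactory receptor clusters. The Dcn arrays of Dox, 4.63 to 4.97, sit below all other Dcn arrays, and the Vcan arrays of control, 7.87 to 8.10, sit above all other Vcan arrays.

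The opposition of Dcn and Vcan was set out by subtracting from each array the gene's own control mean, so that no level of one cluster is set against the other. The departure of Dcn less that of Vcan was 3.36, 2.75 and 3.69 in SB+Dox, 3.09, 3.45 and 3.30 in SB, -1.37, -1.12 and -0.90 in Dox, and -0.21, -0.83 and 1.04 in control. Arrays with the inhibitor stood above those of control, and those of Dox below, with no overlap. The mean was 3.27 ± 0.48 in SB+Dox, 3.28 ± 0.18 in SB and -1.13 ± 0.24 in Dox, and the SD in control was 0.95. The SB+Dox and SB means were close although both genes had a lower mean in SB+Dox than in SB. Vcan in SB+Dox and Dcn in Dox lay near the olfactory percentile. The sizes of the SB+Dox and Dox means may therefore be understated, and the closeness to SB is not read as equality. These values are descriptions without a test, since the pair was chosen with its opposition known.

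**Figure D2:**
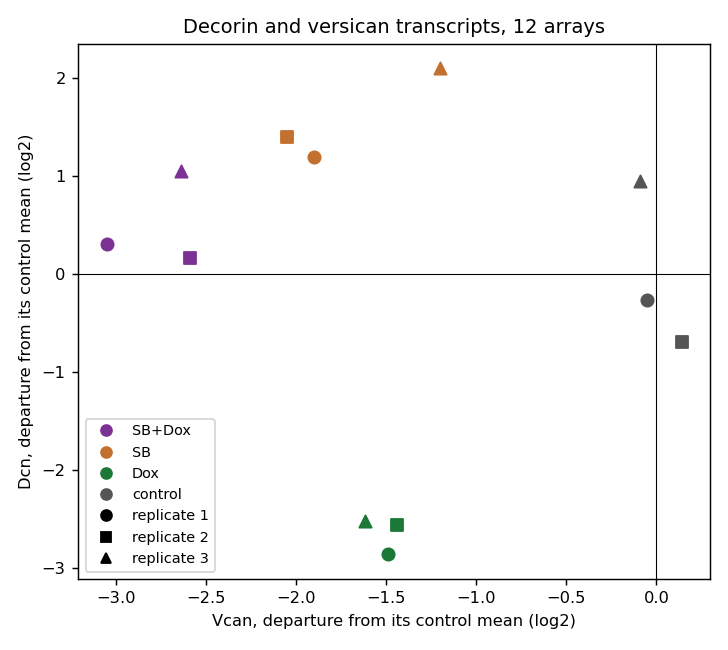
Departure of Dcn (vertical axis) against that of Vcan (horizontal axis) from their own control means, both in log2, with 1 symbol for each array of SB+Dox, SB, Dox and control. Inhibitor arrays hold Dcn above and Vcan below the control means, and Dox arrays hold both below.

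Biglycan is the closest relative of decorin and also binds the dystroglycan complex of muscle membranes. Bgn read 10.08, 9.91 and 10.29 in SB+Dox, 10.62, 10.48 and 10.90 in SB, 10.98, 10.91 and 11.03 in Dox, and 11.17, 11.29 and 11.34 in control. The groups descended from control to Dox, SB and SB+Dox without overlap between neighbours. Relative to control, Bgn was 1.51-fold lower in SB (a change of -0.60 with SE 0.12, adjusted p = 0.00663). With doxycycline present in both groups the inhibitor lowered it 1.84-fold (-0.88, adjusted p = 0.000194). Doxycycline lowered it 1.49-fold with the inhibitor present (-0.57, SE 0.12, adjusted p = 0.00831). Its change in Dox against control, -0.29, did not pass (adjusted p = 0.24), and the difference between the doxycycline changes was not called either (interaction -0.28, adjusted p = 0.561).

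Asporin, a collagen-binding member with an aspartate-rich end that usually lacks sugar chains, read 3.98, 3.72 and 4.67 in SB+Dox, 4.27, 4.39 and 4.76 in SB, 4.21, 3.90 and 3.50 in Dox, and 6.29, 5.99 and 5.76 in control. The control arrays were clear of the rest and the 3 treated groups overlapped, most of their arrays lying below the olfactory percentile. Of the 9 treated arrays 7 lay below it, so the falls from the control mean of 6.01 ± 0.27 are bounds and their sizes have no order. With values under that percentile set to it, Aspn was at least 2.54-fold lower than control in SB+Dox (measured mean 4.12, adjusted p = 0.000186), at least 2.49-fold in SB (4.47, adjusted p = 0.000834) and at least 2.54-fold in Dox (3.87, adjusted p = 9.31e-05). Differences among the treated groups could not be read at this level.

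Osteoglycin, a member first known from bone, read 8.85, 8.38 and 8.94 in SB+Dox, 7.96, 7.88 and 8.80 in SB, 7.76, 7.45 and 7.73 in Dox, and 8.98, 8.80 and 8.89 in control. The Dox arrays were below all others, SB+Dox overlapped control, and SB replicate 3 lay near the control arrays while the other 2 SB arrays lay near those of Dox. Ogn averaged 7.64 ± 0.17 in Dox and 8.89 ± 0.09 in control (log2 change -1.25, SE 0.20, adjusted p = 0.00158), and relative to Dox it was 2.12-fold higher in SB+Dox (1.08, SE 0.20, adjusted p = 0.00242). In SB against control the change was -0.68 (SE 0.20, adjusted p = 0.0659), which passed without SB replicate 3 (-0.97, adjusted p = 0.00135), with array weights (-0.91, adjusted p = 0.00195), with the replicate block (adjusted p = 0.0151), with an intensity trend in the variance (adjusted p = 0.0473) and with dim clusters left out (adjusted p = 0.0404). Adding doxycycline to the inhibitor gave 0.51 (adjusted p = 0.161), which passed without SB replicate 3 (0.81, adjusted p = 0.00466), with array weights (0.66, adjusted p = 0.0168) and with the replicate block fitted to those 2 groups alone (adjusted p = 0.0185). It did not pass with the block over all arrays (adjusted p = 0.0572).

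Lumican and fibromodulin, keratan sulphate proteoglycans that bind collagen fibrils, and Prelp, which binds heparan sulphate and collagen, showed no call in any comparison. Lum had a median of 2.32 and a highest value of 2.81, below the olfactory 95th percentile on each of the 12 arrays. Fmod ranged from 4.27 to 4.81, with 3 of 12 arrays above that percentile, and Prelp from 4.79 to 5.72. Over the 6 contrasts these 3 genes gave 18 limma tests, of which 0 were called and 2 had an unadjusted p under 0.05. Lum in Dox against control (-0.36, adjusted p = 0.193) passed without control replicate 2 (-0.53, adjusted p = 0.0278), a change between values below the olfactory percentile.

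In SB against control 1 of the 8 members, Dcn, was higher and 3, Vcan, Aspn and Bgn, were lower, while 4 did not pass, where 2.51% of all tested clusters were higher and 3.87% lower. The members' median change was -0.36, against 0.03 over all clusters. With doxycycline in both groups, SB+Dox against Dox, 2 were higher (Dcn and Ogn) and 2 lower (Vcan and Bgn), against 6.97% higher and 3.43% lower over all clusters, with medians of 0.02 and -0.03. Doxycycline alone, set against control, lowered 4 members (Dcn, Aspn, Vcan and Ogn) while the other 4 did not pass, against 1.43% higher and 3.88% lower, with medians of -0.80 and 0.01. Doxycycline on top of the inhibitor, SB+Dox against SB, lowered 2 (Vcan and Bgn) while 6 did not pass, against 4.4% higher and 2.71% lower, with medians of -0.31 and -0.04. Both agents together, against control, lowered 3 (Vcan, Aspn and Bgn) while 5 did not pass, against 2.84% higher and 2.42% lower, with medians of -0.30 and -0.02. These comparisons share arrays and are given side by side for that reason.

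**Figure D3:**
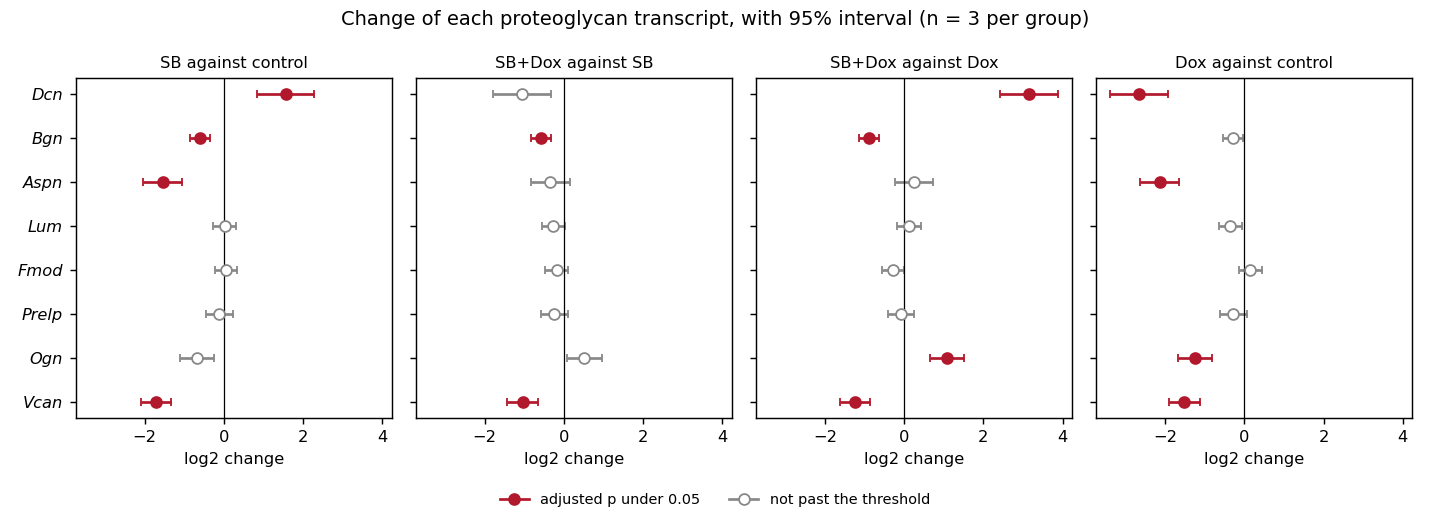
Log2 change of each of the 8 genes (points) with its 95% interval (bars) in 4 comparisons, filled where the change was called. Dcn runs from -2.65 in Dox against control to 3.15 in SB+Dox against Dox, and Vcan is below 0 in each of the 4.

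The doxycycline change of Ogn differed with and without the inhibitor. Ogn changed by 0.51 with it and -1.25 without it, an interaction of 1.76 (SE 0.29, adjusted p = 0.0155). Aspn also passed the interaction test (1.80, SE 0.32, adjusted p = 0.0231), but its SB arrays were already at the level of unused genes, where a further fall with doxycycline could not be measured, so no difference in response is read from it. Over all clusters 0.725% had a positive and 0.17% a negative interaction, and 2 of 8 members, these, were positive. Both calls were lost with every cluster tested (Aspn adjusted p = 0.134, Ogn adjusted p = 0.116), and without SB+Dox replicate 3 (Aspn adjusted p = 0.0516, Ogn adjusted p = 0.0516) or SB replicate 2 (Aspn 0.0771, Ogn 0.0556), and that of Aspn also without SB replicate 1 (adjusted p = 0.0637), Dox replicate 2 (0.0568) or control replicate 1 (0.0613). Dcn, whose Dox arrays lay near the olfactory percentile, had an interaction of 1.59 (SE 0.48, adjusted p = 0.175), which passed with the replicate block (adjusted p = 0.0131). Vcan, whose SB+Dox arrays lay near it, had one of 0.47 (adjusted p = 0.514).

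Some cell markers also changed between the groups, and others did not. The 4 measured genes of a 5-gene list of cycling cells were each called, higher in SB than in control and in SB+Dox than in Dox, and lower in SB+Dox than in SB and in Dox than in control, with a summed linear signal of 393 to 591 in SB+Dox, 891 to 1070 in SB, 187 to 237 in Dox and 457 to 687 in control. Summed muscle marker signal was 14600 to 16300 in SB+Dox, 7100 to 10100 in SB, 16800 to 19500 in Dox and 12700 to 16300 in control. Of 9 muscle markers 5 fell and 1 rose in SB against control (3.87% and 2.51% over all clusters). In SB+Dox against SB 5 rose (4.4% over all clusters). In SB+Dox against Dox 3 fell and 1 rose (3.43% and 6.97%), and in Dox against control 1 fell and 1 rose (3.88% and 1.43%). Among the 5 markers of reserve and satellite cells, Cd34 rose by 1.44 in SB against control (adjusted p = 0.000131) and 2.01 in SB+Dox against Dox (adjusted p = 2.49e-06), and fell by 1.05 in Dox against control (adjusted p = 0.00141), where Sdc4 and Spry1 fell too. Cd34 was the 1 marker of the 5 called in SB against control and in SB+Dox against Dox, and in SB against control the list's median change was -0.01. Pax7 averaged 5.29 in SB and 5.38 in control, Sdc4 7.34 in SB and 7.36 in control, and Spry1 7.06 in SB and 7.29 in control. That list, Cd34 included, summed to 385 to 434 in SB+Dox, 501 to 512 in SB, 285 to 302 in Dox and 422 to 456 in control, with Calcr below the olfactory percentile on each array. The fibroblast list (Pdgfra, Thy1, Ly6a, Tcf21, Dpt, Col15a1 and Pi16) had 6 of 7 genes measured and 0 calls among 36 limma tests, 2 of them with an unadjusted p under 0.05, with sums of 134 to 151 in SB+Dox, 140 to 181 in SB, 147 to 157 in Dox and 139 to 167 in control, and Dpt and Pi16 were below the olfactory percentile on each array. Lists of endothelial, macrophage, adipocyte and tendon genes had 0 limma calls, with 3, 0, 3 and 4 tests at an unadjusted p under 0.05 in that order. Of 4 measured chondrocyte and osteoblast genes Sox9 rose in SB+Dox against SB (0.53, adjusted p = 0.0125) and in Dox against control (0.46, adjusted p = 0.0305). The part of these cell markers in the proteoglycan changes was not tested.

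Genes nearest to each changed member were found by the root mean square difference over 12 arrays after centring each gene on its own mean. For Dcn they were Sema3c, which encodes a secreted semaphorin (0.52), Gfra1, a receptor chain for a neurotrophic factor (0.66), and Cd34 (0.77), beside an SD of 1.69 for Dcn itself. For Vcan they were the cadherin gene Cdh11 (0.45), Brinp3 (0.49) and Col1a1, a chain of type I collagen (0.51), beside an SD of 1.06. Bgn lay nearest to the membrane metalloprotease gene Mmp14 (0.15), then Cnn2 (0.16) and Sulf1 (0.17). Aspn lay nearest to Car3 (0.30), and Ogn to Alox5ap (0.24). Sema3c averaged 8.22 in SB+Dox, 8.90 in SB, 5.70 in Dox and 7.98 in control, and Cdh11 averaged 4.56 in SB+Dox, 5.22 in SB, 5.65 in Dox and 6.39 in control.

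Several members lie next to each other in the mouse genome, as the RefSeq gene order shows. Dcn lies beside Lum and Kera on chromosome 10, and neither neighbour was called. Aspn and Ogn lie on chromosome 13 with Omd between them and Ecm2 on the other side of Aspn. Omd was not called, and Ecm2, a low cluster with a mean of 2.84, was lower both in SB (-0.39, adjusted p = 0.0379) and in Dox (-0.41, adjusted p = 0.0348) than in control. Beyond Ogn, the nucleolar gene Nol8 and Iars, an isoleucyl-tRNA synthetase gene, were lower in SB than in control (-0.42, adjusted p = 0.0184, and -0.62, adjusted p = 0.00213) and higher in SB+Dox than in SB (0.47 and 0.81, adjusted p = 0.00814 and 0.000453). Beside Vcan, also on chromosome 13, Hapln1, the link protein gene, had a mean of 2.82 and no call, and Edil3 was lower in Dox than in control (-1.18, adjusted p = 0.00892).

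Promoter sequences, from 250 bases before to 50 after the gene start, come from RefSeq (GRCm38.p6), whose table held 6 of the 8 members and not Dcn or Lum. The promoters of Aspn, Ogn and Vcan are shown because these genes were lower in Dox cells, in which Myog, a factor that binds E-boxes, was to be induced. Capitals mark E-boxes (CANNTG), each strand reading the same. Coordinates are chr13:49544193-49544492 on the plus strand for Aspn, chr13:49607765-49608064 on the plus strand for Ogn and chr13:89742463-89742762 on the minus strand for Vcan, each sequence written 5′ to 3′ along the gene.
Aspn: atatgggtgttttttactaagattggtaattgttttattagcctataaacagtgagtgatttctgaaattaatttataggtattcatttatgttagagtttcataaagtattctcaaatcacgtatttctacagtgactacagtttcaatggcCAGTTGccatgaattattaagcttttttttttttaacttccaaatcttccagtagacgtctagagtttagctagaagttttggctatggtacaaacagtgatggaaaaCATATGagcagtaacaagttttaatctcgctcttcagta
Ogn: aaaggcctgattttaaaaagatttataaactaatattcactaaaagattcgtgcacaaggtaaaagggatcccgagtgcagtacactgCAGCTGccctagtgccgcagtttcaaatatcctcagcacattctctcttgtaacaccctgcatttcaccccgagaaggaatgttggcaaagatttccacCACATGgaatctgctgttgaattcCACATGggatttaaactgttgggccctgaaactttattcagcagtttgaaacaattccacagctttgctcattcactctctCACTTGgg
Vcan: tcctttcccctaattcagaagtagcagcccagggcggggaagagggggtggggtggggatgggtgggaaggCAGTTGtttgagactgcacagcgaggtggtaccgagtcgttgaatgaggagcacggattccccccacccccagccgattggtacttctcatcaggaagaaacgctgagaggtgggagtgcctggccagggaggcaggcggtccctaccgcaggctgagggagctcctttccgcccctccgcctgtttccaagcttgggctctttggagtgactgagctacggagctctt
The Aspn promoter held 2 E-boxes, that of Ogn 4, of which 1 was CAGCTG, and that of Vcan 1. CANNTG occurred in 72.3% of 32851 promoters of this length and CAGCTG, a form of it, in 16.3%, so a match is common. The promoters of Bgn, Fmod and Prelp, genes not called in Dox against control, held 1 E-box each, that of Bgn being CAGCTG. The sequences TGANTCA, the AP-1 motif, and TGACG, found in 7.81% and 20.8% of all promoters on either strand, occurred in none of the 6 member promoters. A match is a description of these letters and not a bound site.

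Genes that work with the proteoglycans were taken from 9 lists written from general knowledge, with earlier results of these data known. Each list's counts stand beside the shares called over all clusters, which were 2.51% higher and 3.87% lower in SB against control, 4.4% and 2.71% in SB+Dox against SB, 6.97% and 3.43% in SB+Dox against Dox, 1.43% and 3.88% in Dox against control, and 2.84% and 2.42% in SB+Dox against control. Among 7 genes of versican's relatives and link proteins, the link protein gene Hapln4 rose in SB+Dox against SB (0.50, adjusted p = 0.017) and in Dox against control (0.50, adjusted p = 0.0179). Of 10 measured hyaluronan genes, Has2, the main hyaluronan synthase gene of many mesenchymal cells, was the 1 gene lowered in SB against control (-0.96, adjusted p = 0.000436). In Dox against control it fell (-0.76, adjusted p = 0.00235) with Hmmr, a hyaluronan-binding protein gene (-0.91, adjusted p = 0.00946). Cemip, which takes part in hyaluronan breakdown, rose in Dox against control (1.19, adjusted p = 0.0492) and fell in SB+Dox against Dox (-2.0, adjusted p = 0.000886). Its Dox (6.78 ± 0.95) and control (5.59 ± 0.36) arrays overlapped. Its SB+Dox mean of 4.78 lay near the olfactory percentile, so that fall may be understated. Hmmr (0.85, adjusted p = 0.00864) and Cd44 (0.59, adjusted p = 0.0055) were higher in SB+Dox than in Dox. Hmmr was also lower in SB+Dox than in SB (-0.73, adjusted p = 0.0314). The Hmmr mean in Dox, 4.09, lay below that percentile, so its differences from Dox may be understated. Has2 also passed the interaction test (0.92, adjusted p = 0.0364). Its means in SB (4.93), Dox (5.13) and SB+Dox (5.09) lay not far above the olfactory percentile, although all 12 arrays exceeded it. A further fall with doxycycline in SB cells may not have been measurable, so no difference in response is read from this interaction. The hyaluronan list's median was 0.08 in SB against control and -0.06 in Dox against control.

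Enzymes that cleave versican, with their inhibitor Timp3, moved in different directions. Of 10 genes, 1 rose and 2 fell in SB against control (2.51% and 3.87% over all clusters), with Adamts5 at -1.45 (adjusted p = 0.00539), Mmp14 at -0.55 (adjusted p = 0.0199) and Timp3 at 0.46 (adjusted p = 0.0293). Doxycycline with the inhibitor, against the inhibitor alone, raised 2 and lowered 1, with Adamts5 at 1.05 (adjusted p = 0.0352), Adamts1 at 0.98 (adjusted p = 0.000826) and Mmp14 at -0.63 (adjusted p = 0.00853). In Dox against control Adamts1 rose (1.05, adjusted p = 0.000364) with Timp3 (0.67, adjusted p = 0.00281), and Mmp2 fell (-0.55, adjusted p = 0.0177). The 2 genes called in SB+Dox against Dox fell, Adamts4 by 1.46 (adjusted p = 0.00269) and Mmp14 by 0.82 (adjusted p = 0.000728). In SB against control the list's median change was -0.08 and in SB+Dox against Dox -0.27, beside 0.03 and -0.03 over all clusters.

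Among 27 genes for the making of chondroitin and dermatan sulphate chains, the sulphotransferase gene Ust (-0.71, adjusted p = 0.000131) and the epimerase gene Dse (-0.64, adjusted p = 0.0117) fell and Papss1 rose (0.40, adjusted p = 0.0241) in SB against control. Of the same list 3 fell in SB+Dox against SB, Ugdh, which makes UDP-glucuronic acid, by 1.03 (adjusted p = 0.000836), Csgalnact1 by 0.64 (adjusted p = 0.0134) and Chsy1 by 0.54 (adjusted p = 0.00384). Against Dox, SB+Dox had 4 raised and 4 lowered (6.97% and 3.43% over all clusters), among them the sulphotransferase gene Chst12 (0.76, adjusted p = 0.0021) and the transporter gene Slc35d1 (-0.63, adjusted p = 0.00324). The 3 genes called in Dox against control fell, Chst12 by 0.65 (adjusted p = 0.0108), Chsy1 by 0.50 (adjusted p = 0.00586) and Papss1 by 0.44 (adjusted p = 0.0138). The list medians were -0.02, -0.03, 0.05 and -0.12 in that order, beside 0.03, -0.04, -0.03 and 0.01 over all clusters.

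Collagen and matrix genes that proteoglycans bind were mostly lower where they were called. In SB against control and in Dox against control, lower calls outnumbered higher ones over all clusters as well. Of 18 collagen and matrix partners measured, 1 rose and 6 fell in SB against control (2.51% and 3.87% over all clusters), 1 rose and 7 fell in Dox against control (1.43% and 3.88%), and 9 fell in SB+Dox against control (2.42% lower over all clusters). The medians in that order were -0.26, -0.14 and -0.45, beside 0.03, 0.01 and -0.02 over all clusters. Col1a1 fell by 2.49 in SB against control (adjusted p = 6.1e-05) and by 2.21 in Dox against control (adjusted p = 0.000187). With the inhibitor present its doxycycline change, -0.43, did not pass (adjusted p = 0.386). Its interaction, 1.78, passed close to the threshold (adjusted p = 0.0434). Col3a1, type III collagen, fell by 1.84 in Dox against control (adjusted p = 9.2e-06) and by 0.96 in SB+Dox against SB (adjusted p = 0.001), and exceeded its Dox level by 0.55 in SB+Dox (adjusted p = 0.0208). The type VI collagen genes Col6a1 and Col6a3 fell by 1.20 and 1.02 in Dox against control (adjusted p = 4.01e-05 and 0.000492) and by 0.96 and 0.85 in SB+Dox against SB (adjusted p = 0.000342 and 0.00208). Of 6 genes for proteins that process procollagen and proteoglycans (proteases, their enhancers and a crosslinking enzyme), Lox, which crosslinks collagen, fell by 1.86 in SB against control (adjusted p = 2.24e-05) and by 1.74 in SB+Dox against Dox (adjusted p = 1.54e-05), while Pcolce, a procollagen proteinase enhancer, fell by 0.84 in Dox against control (adjusted p = 0.000805). In SB against control 2 of the 6 fell (median -0.11), and in SB+Dox against Dox 1 rose and 3 fell (median -0.23).

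**Figure D4:**
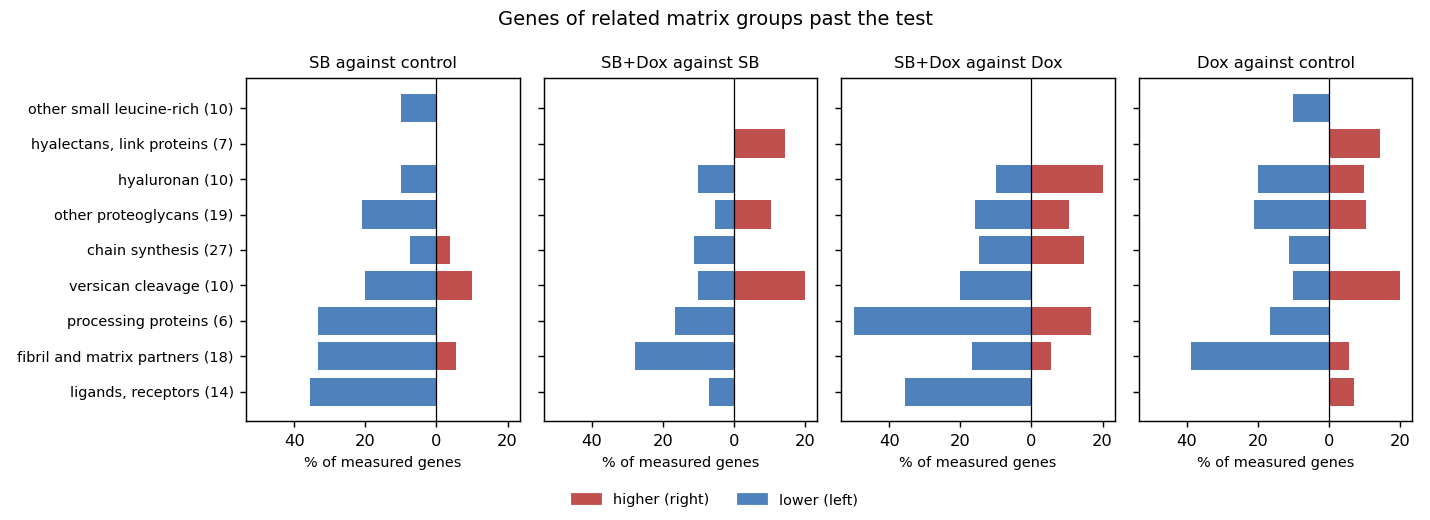
Percent of the measured genes of each list (their number in brackets) that were called higher (right of 0) or lower (left of 0) in 4 comparisons. Fibril and matrix partners had 7 of 18 genes lowered in Dox against control, and 5 of 14 ligand and receptor genes were lowered in SB against control.

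Among 19 other proteoglycan genes, perlecan (Hspg2, -0.73, adjusted p = 0.00925), Sdc2 (-0.56, adjusted p = 0.0481), Spock2 (-0.54, adjusted p = 0.000651) and Gpc1 (-0.35, adjusted p = 0.0323) fell in SB against control and the other 15 did not pass (median -0.01). In Dox against control 2 of the 19 rose and 4 fell (1.43% and 3.88% over all clusters). Those lowered were Sdc2 (-0.78, adjusted p = 0.00692), Gpc6 (-0.61, adjusted p = 0.00231), Sdc4 (-0.57, adjusted p = 0.00218) and Spock2 (-0.45, adjusted p = 0.00235). In SB+Dox against Dox 2 rose and 3 fell (6.97% and 3.43%), with Sdc3 (0.75, adjusted p = 0.00804) and Gpc6 (0.38, adjusted p = 0.0274) higher. Col18a1, type XVIII collagen, rose in Dox against control (0.97, adjusted p = 0.00218) and fell in SB+Dox against Dox (-1.56, adjusted p = 2.14e-05), with an interaction of -1.20 (adjusted p = 0.0296). Cspg4, the NG2 proteoglycan gene, rose in Dox against control (0.69, adjusted p = 0.00203) and in SB+Dox against SB (0.44, adjusted p = 0.0314), and fell in SB+Dox against Dox (-0.60, adjusted p = 0.00285). Of 10 other small leucine-rich proteoglycan genes measured, Ecm2 was the 1 called gene in the comparisons with control.

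Of 14 genes for ligands and receptors of these proteoglycans, 5 fell in SB against control (3.87% lower over all clusters) and 5 in SB+Dox against Dox (3.43%), and the remaining 9 did not pass in each. Their median changes were -0.29 and -0.16, beside 0.03 and -0.03 over all clusters. The connective tissue growth factor gene Ccn2 fell by 1.34 and 1.63 in those comparisons (adjusted p = 0.000389 and 3.53e-05), Ccn4 by 0.84 and 1.33 (adjusted p = 0.000574 and 4.66e-06), Tgfb1 by 0.51 and 0.73 (adjusted p = 0.0071 and 0.000284), and Lrp1, an endocytic receptor for decorin, by 0.77 and 0.53 (adjusted p = 0.00249 and 0.0161). In Dox against control Ccn4 rose (0.54, adjusted p = 0.0132), the 1 call in that list.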

How the data were processed

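Total RNA of 12 samples in 4 groups was measured on Affymetrix whole-transcript arrays. The deposited values are log2 signals that the authors made with RMA in Affymetrix Expression Console, per the submitters' processing notes, whose versions are not given in the sources used here. Of 35557 transcript clusters, 21789 carried exactly 1 gene symbol in GEO's platform annotation and were tested, 21698 of them matched to the gene table. Those with more than 1 symbol (1621) or no symbol (12147) were not tested. The 12 arrays were fitted with limma 3.58.1 in R 4.3.3, with 1 mean per group and moderated variances, and p-values were adjusted by the Benjamini-Hochberg method within each comparison. Arrays have no depth, and 3 per group limit the precision.

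The interaction subtracts Dox minus control from SB+Dox minus SB. Members and gene lists were chosen with earlier results of these data known. Besides all members, the genes named were the up to 4 called list genes with the largest change in each of the first 4 comparisons, the cell markers, neighbours and nearest patterns. Same-numbered SB+Dox and SB arrays correlated in their deviations (0.44, 0.19 and 0.49). Those of the other group pairs did not all exceed 0.1. Alternatives covered scaling, filters, array weights, the replicate block and each left-out array. The method was tested on simulated data.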

Additional observations from a re-analysis of the deposited data

Results flagged for a closer look

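The doxycycline change differed with and without the inhibitor for Ogn, with an interaction of 1.76 (adjusted p = 0.0155). Aspn passed the same test with an interaction of 1.8 (adjusted p = 0.0231), but a further fall could not be measured in SB cells, whose mean of 4.47 lay below the olfactory 95th percentile of 4.67, so whether its response differed could not be told. Its arrays above that level numbered 1 in SB+Dox, 1 in SB, 0 in Dox and 3 in control. For Ogn all 12 arrays were above it. SB replicate 3 lay apart from the other 2 SB arrays for Ogn, at 8.80 against 7.96 and 7.88. The array weights that limma estimated over all clusters were lowest for SB replicate 3 (0.365) and control replicate 3 (0.47), and were 2.29 at the highest.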

How the results depend on the processing

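Of 1158 recomputed values 1105 kept their direction and side of the threshold, 14 newly passed, 12 no longer passed, 9 counts of members moved by over 1.5 times and 18 turned direction. Counts within 1.5 times are among the 1105. With the replicate block, members called were 5 in SB against control (4 in the report), 3 in SB+Dox against SB (2) and 3 for the interaction (2), and with 1 array left out 3 to 5 in SB against control. Dcn in SB against control was 1.56 with every cluster tested (adjusted p = 0.0635), and ranged from 1.22 to 2.04 with 1 array left out. Dcn in SB+Dox against SB passed with array weights (-1.03, adjusted p = 0.0183), with the replicate block (-1.05, adjusted p = 0.00509), with a block fitted to those 6 arrays alone, an alternative chosen after seeing the data (-1.05), and without control replicate 3 (-1.05, adjusted p = 0.0185), and ranged from -1.33 to -0.79. The Dcn interaction passed with the replicate block (1.59, adjusted p = 0.0131). Members called in SB+Dox against SB were 4 with array weights and 4 with the block fitted to those arrays alone. Members with a called interaction were 1 with dim clusters left out, which tested 4 members, 0 with every cluster tested, and 0 to 2 with 1 array left out. Changes that turned direction had no call in the report: Lum in SB against control (-0.02 with centred arrays), and, with array weights, Fmod (-0.10) and Prelp (0.01) in SB against control and the Prelp interaction (-0.09). With 1 array left out Lum ranged from -0.14 to 0.18, Fmod from -0.05 to 0.18 and Prelp from -0.26 to 0.12 in SB against control, Aspn from -0.02 to 0.45 in SB+Dox against Dox, Fmod from -0.23 to 0.00 and Ogn from -0.27 to 0.01 in SB+Dox against control, and the interactions of Lum from -0.06 to 0.26 and Prelp from -0.20 to 0.18. The cause was not tested. Apart from Dcn here and Ogn in SB against control, the replicate block over all 12 arrays changed no member's call. Over all clusters, calls ranged from 779 to 2794 in SB against control (1390 in the report), 724 to 3076 in SB+Dox against SB (1550), 744 to 1831 in Dox against control (1156), 644 to 1935 in SB+Dox against control (1146) and 6 to 678 for the interaction (195). With arrays centred on their medians, 336 rose and 884 fell in SB against control (547 and 843 in the report), and 1188 rose and 370 fell in SB+Dox against SB (959 and 591). For the interaction 59 were positive and 25 negative after quantile normalisation, and 223 and 22 after centring (158 and 37 in the report). Averaging a gene's clusters gave no other value, since each member had 1 cluster.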
